A study of Mus musculus with 16 samples.

Results

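Cytosolic ribosomal protein genes encode the proteins that, with ribosomal RNA, make up the large and small subunits of the ribosome outside mitochondria. They were chosen by name from the deposited count table: protein-coding rows whose symbol is Rpl, Rps or Rplp followed by a number and an optional letter, or is Rpsa, with a mean raw count of at least 10 over the 16 libraries. The name matched 81 of 54532 rows and the minimum kept 77, of which 46 belong to the large subunit and 31 to the small subunit. All 77 passed the low-count filter used for testing. Just inside the minimum lay Rpl36al, with a mean count of 13.25, and just outside it Rpl24, with 8.25. The other rows under the minimum were Rpl3l with 2.31, Rpl39l with 1 and Rpl10l with 0.

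The libraries came from bone marrow macrophages of wild-type C57BL/6 mice aged 2 to 3 months, grown from tibial marrow. Marrow cells were held for 24 h with 15% fetal calf serum and 12 ng/ml CSF-1, the growth factor that drives macrophage differentiation, and for a further 48 h at 120 ng/ml. Adherent cells were passaged once onto uncoated dishes or dishes coated with fibronectin at 10 µg/ml, grown to confluence, and treated for 24 h with 10 µg/ml of an IgG control antibody or of a neutralizing antibody against ITGAV, which is the αV chain of several integrins. This gave 4 groups of 4 libraries: uncoated with IgG, uncoated with anti-ITGAV, fibronectin with IgG, and fibronectin with anti-ITGAV. The labels do not say whether the 4 libraries of a group came from separate mice or cultures, so each p-value reflects only how much these particular samples vary, and that variation may be technical. The coating and the antibody act on a mixed culture, and in bulk RNA fewer cells of a type and less RNA per cell cannot be told apart.

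As background, ribosomal protein mRNAs are among the most abundant in growing cells, and most begin with a C followed by a run of pyrimidines, the terminal oligopyrimidine (TOP) tract. Through this tract the mTOR kinase pathway and the binding protein Larp1 control how fast these mRNAs are translated, so that protein output can move while the mRNA level stays still. New ribosomes also need assembly factors in the nucleolus and transcription by RNA polymerase I, and the transcription factor Myc drives genes of all of these steps. Several ribosomal proteins have roles beside the ribosome: RPL5 and RPL11 restrain MDM2 and so protect p53, RPS6 is the substrate of the S6 kinases, and RPS27A is made as a fusion to ubiquitin.

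RefSeq start sites on GRCm38.p6 were at hand for 57 of the 77 members. The windows below hold 30 bases, of which 15 lie before the annotated start and 15 from it on. Capitals mark the longest run in the window that begins with C and goes on in C or T for 5 or more bases in all, on the strand of the gene. The 8 members were selected because their levels are described below, 5 of them with such a run and 3 without. Rps6 lies on the minus strand at chr4:86857353-86857382, Rplp2 on the plus strand at chr7:141447636-141447665, Rps27 on the minus strand at chr3:90213634-90213663, Rps12 on the minus strand at chr10:23787195-23787224, Rpl7a on the plus strand at chr2:26910792-26910821, Rplp0 on the plus strand at chr5:115559452-115559481, Rpl5 on the plus strand at chr5:107900513-107900542, and Rps28 on the minus strand at chr17:33824548-33824577.
Rps6: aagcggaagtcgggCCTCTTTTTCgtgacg
Rplp2: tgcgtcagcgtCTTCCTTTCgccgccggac
Rps27: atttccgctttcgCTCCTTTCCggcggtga
Rps12: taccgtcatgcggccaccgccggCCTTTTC
Rpl7a: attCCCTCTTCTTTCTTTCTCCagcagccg
Rplp0: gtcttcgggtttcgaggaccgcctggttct
Rpl5: tctcacgtcgcttgcgtgctggtggtgcta
Rps28: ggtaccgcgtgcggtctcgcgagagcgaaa

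With the first listed start of each gene, a run of 7 or more bases lay in the window of 27 of 57 members (47.4%) and of 3770 of 26968 other genes. A run of 9 or more lay in 29.8% of members and 5.68% of the others. In the 300 bases from 250 before to 50 after the start, read on both strands, CCGGAAG, the core of sites bound by ETS factors, was found in 40.4% of members and 9.06% of other genes. CTTTC was found in 82.5% against 57.1%, GGGCGG in 61.4% against 35.9%, AAGATGG in 8 of 57 against 6.46%, and the TATA sequence TATAAA in 8.77% against 14.2%. These are matches of letters in annotated windows, not measured binding or start sites, and a start annotated a few bases off moves a tract out of its window.

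Members were among the most abundant mRNAs of these macrophages. The deposited FPKM, which scales counts to gene length and library depth, averaged over the 16 libraries had a median of 166 over the 77 members. Over the 9734 protein-coding genes with a mean FPKM of at least 1 the median was 8.36. The top 5% of those genes began at an FPKM of 85.2, and 62 members lay in it. Rplp1, an acidic stalk protein that recruits elongation factors, had the highest level at 1133 ± 125 FPKM (SD, n = 16), well apart from Rplp0, the stalk base, at 598 ± 70.6. Rps2 followed at 480 ± 68.5, Rpl41 at 473 ± 68.4 and Rps15 at 434 ± 78.6, and these 3 lay within their spread of each other.

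The lowest members were Rpl36al at 0.282 ± 0.108 FPKM, Rps10 at 0.771 ± 0.212, Rpl13a at 8.04 ± 0.739, Rpl21 at 16.8 ± 3.15 and Rps15a at 43.7 ± 2.73 (SD, n = 16). Each step in this order was larger than the SD of either neighbour. The place of Rps15a depends on its length, which is 6270 bases as deposited and 5130 for the principal mRNA. Its mean count was 9690.5, above the 2021 of Rpl21. For Rpl36al, Rpl13a and Rps10, 63.1%, 59.3% and 53.6% of the bases of the principal transcript lie in same-strand exons of another annotated gene, as do 71.5% for Rpl24, which fell under the minimum. Of the other name matches Rpl19 had 10.7% and the rest none. The overlapping genes had a count of 0 in every library. How reads shared by 2 genes were counted is not given in the sources used here, and the part of these overlaps in the low counts was not tested.

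**Figure D1:**
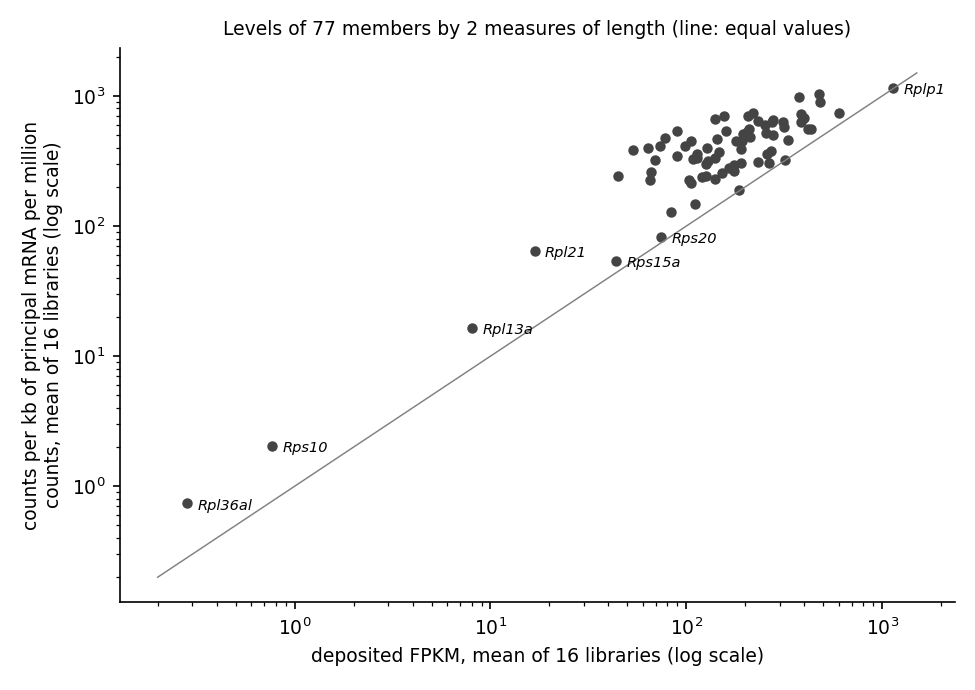
Mean level of each of the 77 members over 16 libraries, as deposited FPKM on the x axis and as the same measure per length of the principal mRNA on the y axis, both on log scales. Most members sit above the line of equal values, because the deposited gene length is longer than 1 mRNA. Rpl36al and Rps10 lie far below all others on both scales, and Rpl13a is the next lowest.

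The scale of length changed the order of the members. Deposited gene lengths had a median of 1770 bases and principal mRNAs a median of 761. Per kb of the principal mRNA the median level was 396, and the rank order had a Spearman rho of 0.719 with that of the deposited FPKM. Rps19 moved from rank 64 to rank 30 and Rps18 from 41 to 9, while Rplp1 stayed first and Rpl36al last. Paralogues differed widely on the deposited FPKM scale. Rpl36a stood at 65.5 FPKM and its relative Rpl36al at 0.282, and Rps27 at 108 ± 64.0 and Rps27l at 140 ± 15.9 (SD, n = 16) overlapped. Rpl3, Rpl10 and Rpl39 had 251, 375 and 140 FPKM, while their relatives Rpl3l, Rpl10l and Rpl39l had almost no counts.

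The summed counts of the 77 members made up 2.70 ± 0.144% of all counts in uncoated dishes with IgG, 2.77 ± 0.174% in uncoated with anti-ITGAV, 2.74 ± 0.223% in fibronectin with IgG and 2.49 ± 0.198% in fibronectin with anti-ITGAV (SD, n = 4 each). The single libraries ran from 2.53 to 2.88%, 2.54 to 2.95%, 2.52 to 2.99% and 2.20 to 2.62%. All 4 groups overlapped. The lowest value, 2.20%, was library 3 of fibronectin with anti-ITGAV, and the other 3 libraries of that group lay between 2.52 and 2.62%. Libraries 2 and 4 lay inside the range of every other group, and library 1 just below the lowest library of each. Large-subunit counts over small-subunit counts gave a ratio of 1.41 ± 0.0102 in fibronectin with anti-ITGAV (lowest 1.403, highest 1.426) and of 1.39 ± 0.00960, 1.38 ± 0.00776 and 1.38 ± 0.00806 in the other groups in the order above, whose 12 libraries ran from 1.373 to 1.399. This ratio was thus higher in all 4 libraries of that group than in any other library, a gap seen in these data and not tested.

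Libraries held 27995035 to 43413650 counts. They differed in how the level of a gene depended on the GC content of its mRNA: the Spearman rho of the log2 deviations of the genes that are not members with GC content ran from -0.71 in library 3 of fibronectin with anti-ITGAV to 0.54 in library 2 of fibronectin with IgG. That library 3 also had 3.67% of its counts on mitochondrially encoded genes, against 1.30 to 1.60% in the other 15. The members' summed share followed this GC trend across the 16 libraries, with r = 0.90 and rho = 0.81, and r = 0.83 without the 2 libraries of most extreme trend. The share is a score over members chosen with results known, so these correlations are given as a description with no p. The library with the highest GC trend was also the one with the highest share in all 4 groups, and the library with the lowest trend the one with the lowest share in 2 of 4. No batch is given in the labels.

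**Figure D2:**
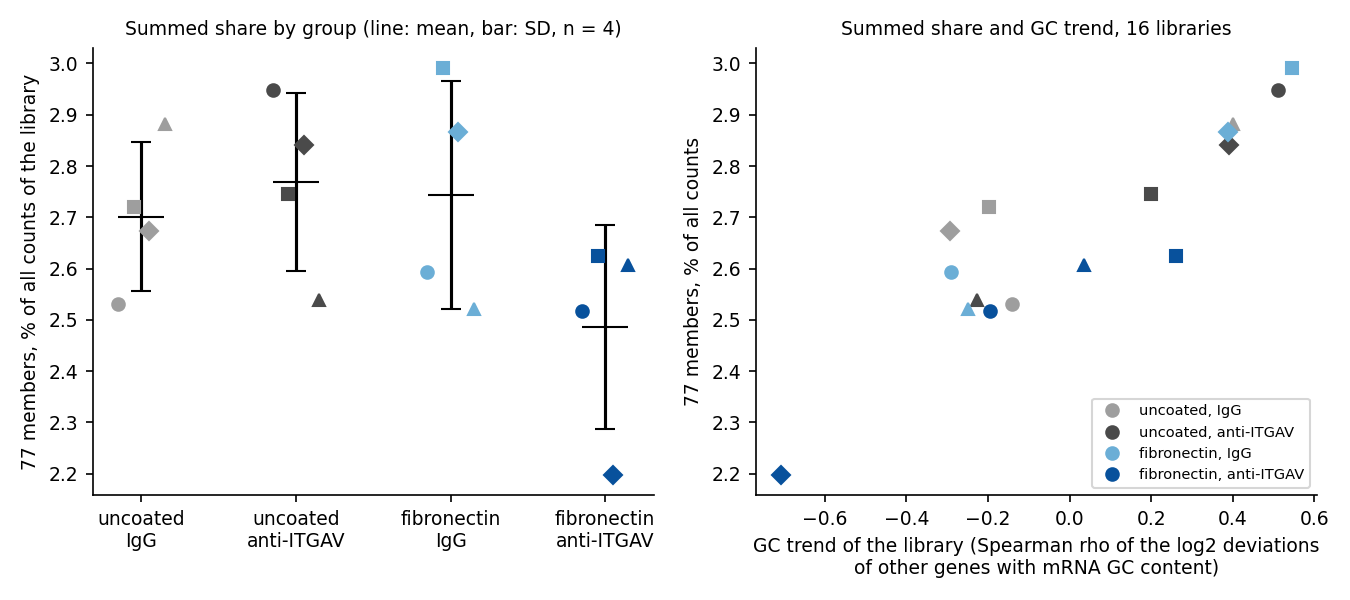
Left, counts of the 77 members as a percent of all counts in each library, by group, with the group mean as a line and the SD as a bar (n = 4; circle, square, diamond and triangle are libraries 1 to 4). Right, the same share against the GC trend of the library; the diamond at a trend of -0.71 and a share of 2.20% is library 3 of fibronectin with anti-ITGAV.

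The members themselves spanned 41.3 to 60.8% GC, with a median of 51.8%. In library 3 of fibronectin with anti-ITGAV, 44 members had their lowest value of the 16 libraries and 11 their highest. The median GC content was 53.9% for the first set and 48.7% for the second. Against the mean of the other 3 libraries of its group, Rps15 (57.8% GC) stood at 0.387 times, Rpl29 (57.2% GC) at 0.391 times and Rpl36 (60.8% GC) at 0.401 times, while Rps27 (50.7% GC) stood at 4.39 times, Rpl39 (48.7% GC) at 2.49 times and Rpl30 (47.9% GC) at 1.87 times. Across the members this ratio had a Spearman rho of -0.54 with GC content, a description over genes of 1 library. The estimates of fibronectin with anti-ITGAV include this library unless its absence is stated.

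**Figure D3:**
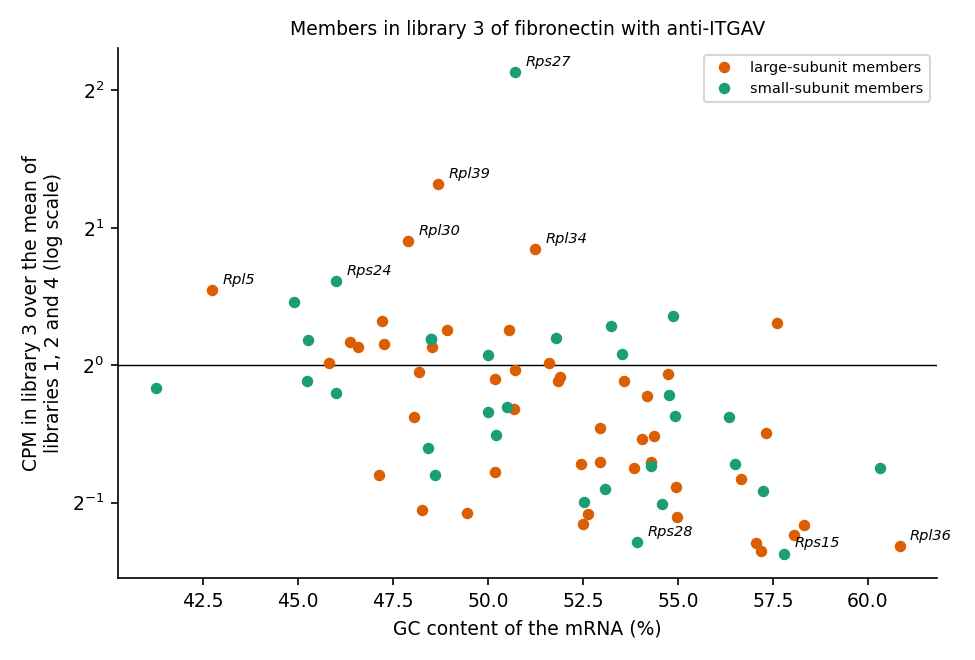
CPM of each member in library 3 of fibronectin with anti-ITGAV over the mean of libraries 1, 2 and 4 of that group (log scale), against the GC content of its mRNA. Members of high GC content such as Rps15 and Rpl36 lie near 0.4, and Rps27, Rpl39, Rpl30 and Rpl34 lie highest.

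Blocking ITGAV on fibronectin changed no member past the threshold. The comparison asks what the αV integrin contributes where its ligand coats the dish. By edgeR's quasi-likelihood test 0 of 77 members had an adjusted p under 0.05, where 2 of 15469 genes (0.0129%) had; an unadjusted p under 0.05 was found for 12 members (15.6%) and 4.65% of all genes, while DESeq2 and limma on log2(FPKM + 1) also called 0 members. Estimates leaned down: 63 members were negative and 14 positive, with a median log2 change of -0.16 against 0.00011 over all genes. The median was -0.13 for the large subunit and -0.17 for the small one. With a per-library GC offset fitted on genes that are not members the median was -0.11 with 57 negative. It was -0.10 without library 3 of fibronectin with anti-ITGAV, with 68 negative, and -0.089 without library 2 of fibronectin with IgG, the library with the highest share. Under the GC offset 17 members and 697 of 15469 genes had an unadjusted p under 0.05 by edgeR.

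Rplp0, often used as a reference gene, shows the pattern most members shared. Its CPM was 933, 1226, 1094 and 940 in libraries 1 to 4 of fibronectin with IgG and 956, 978, 703 and 959 in fibronectin with anti-ITGAV. The groups overlapped, and only library 3 of the second lay below all of the first. The log2 change was -0.22 (SE 0.115, edgeR adjusted p = 0.721), and -0.12 without that library. Rpsa, a small-subunit protein also known as the laminin receptor, gave 936, 1200, 1097 and 909 CPM with IgG and 977, 993, 762 and 998 with anti-ITGAV, with a log2 change of -0.15, or -0.066 without library 3. Rps6 gave 494, 577, 549 and 487 CPM against 485, 501, 514 and 481, a log2 change of -0.090 (SE 0.0799). For Rps6 library 3 lay with the others.

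The stalk partners Rplp1 and Rplp2 had log2 changes of -0.15 and -0.33, which became -0.039 and -0.13 without library 3. Rps3, at the mRNA entry channel, had -0.19 and -0.066 in the same way, and Rps19, the gene most often mutated in Diamond-Blackfan anaemia, -0.27 and -0.085.

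Rps27a, the ubiquitin fusion gene, had the largest estimate in this comparison. Its CPM was 289, 180, 428 and 360 in fibronectin with IgG and 165, 169, 189 and 161 in fibronectin with anti-ITGAV. The second group was tight and library 2 of the first fell inside it, so the groups overlapped by that 1 library. The log2 change was -0.88 (SE 0.259, edgeR adjusted p = 0.721; unadjusted p = 0.00346), and -0.93 without library 3 of the second group. Rps28, Rps29 and Rpl37 followed at -0.43, -0.42 and -0.42, and the last 2 were at -0.25 and -0.22 without library 3. For Rps28 the 4 libraries with anti-ITGAV were at 117, 126, 50.1 and 123 CPM and those with IgG at 169, 135, 133 and 123, and without library 3 the log2 change was -0.20.

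At the other end, Rps27 (log2 0.56), Rpl30 (0.39), Rpl17 (0.24) and Rpl39 (0.21) had the largest positive estimates, none past the threshold. Rps27 was at 49.8, 92.1, 344 and 93.2 CPM with anti-ITGAV and at 117, 128, 55.2 and 93.7 with IgG. Library 3 alone stood high. Without it the log2 change of Rps27 was -0.33 and that of Rpl39 -0.25, the opposite direction, and that of Rpl30 was 0.11. Rpl5, whose protein joins 5S RNA and RPL11, stood at 496, 491, 715 and 479 CPM with anti-ITGAV and at 505, 446, 488 and 500 with IgG, and its log2 change of 0.17 became 0.011 without library 3 and -0.040 with the GC offset. Its partner Rpl11 was at -0.27 (SE 0.132, edgeR adjusted p = 0.721), and at -0.12 without library 3.

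**Figure D4:**
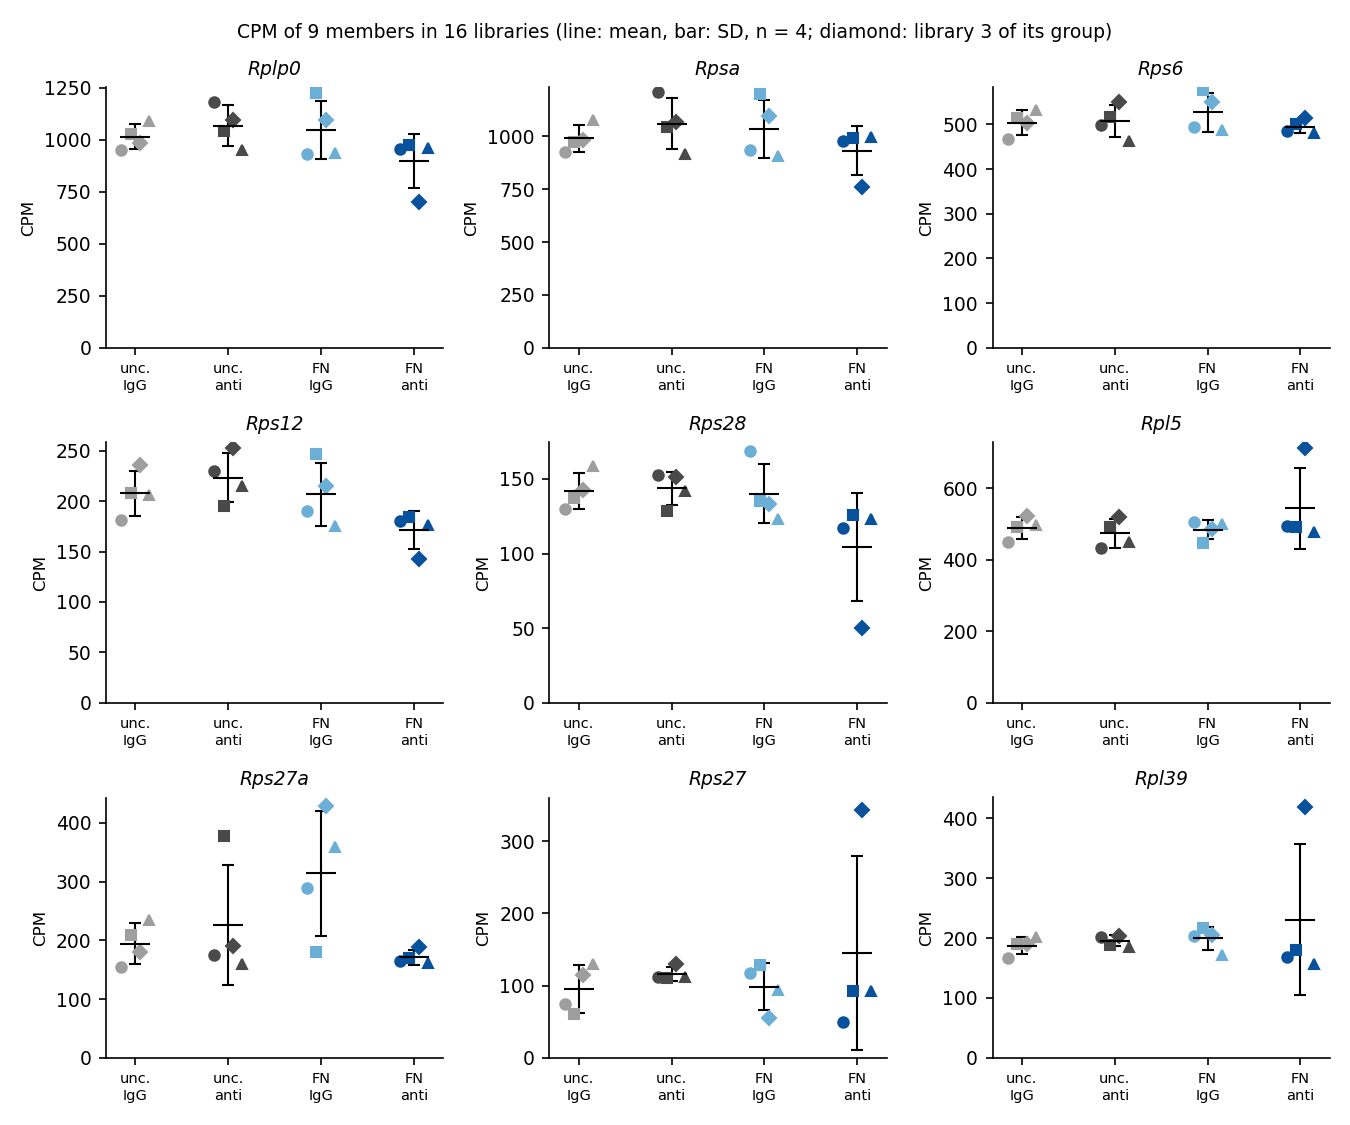
CPM of 9 members in the 16 libraries, by group (unc., uncoated; FN, fibronectin; anti, anti-ITGAV), with the group mean as a line and the SD as a bar (n = 4). The diamond of the last group, library 3, lies below the rest for Rplp0, Rpsa, Rps12 and Rps28, above the rest for Rpl5, Rps27 and Rpl39, and among them for Rps6 and Rps27a.

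On uncoated dishes the antibody left the members close to their control. By edgeR 0 of 77 members passed, where 2 of 15469 genes (0.0129%) did, and 0 members had an unadjusted p under 0.05, against 3.04% of all genes; DESeq2 and limma called 0 as well. The median log2 change was 0.056 with 67 members positive, against 0.014 over all genes, and 72 of 77 members lay within 0.25 of 0. With the GC offset the median was 0.025 and 56 were positive. The estimates farthest from 0 belonged to the 2 lowest members, Rpl36al (-0.47) and Rps10 (0.42), followed upward by Rpl17 (0.36), Rpl7a (0.30) and Rps27 (0.28) and downward by Rpl7 (-0.084), Rpl35a (-0.055) and Rps24 (-0.049). Rpl36al rested on a mean count of 13.25. Rplp0 was at 952, 1031, 985 and 1091 CPM with IgG and at 1184, 1041, 1096 and 950 with anti-ITGAV, with a log2 change of 0.074 (SE 0.115).

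Fibronectin under IgG also moved no member past the threshold, in a comparison that changed many other genes. By edgeR 0 of 77 members passed, against 586 of 15469 genes (3.79%); before adjustment 1 member, Rps27a, and 15.2% of all genes were under 0.05, and the calls of DESeq2 and limma held 0 members. The median log2 change was 0.036, with 58 positive, and 74 of 77 lay within 0.25 of 0. The median turned to -0.019 without library 2 of fibronectin with IgG and to -0.00045 without library 1 of uncoated with IgG. Rps27a was at 154, 210, 180 and 234 CPM on uncoated dishes and at 289, 180, 428 and 360 on fibronectin. Libraries 1, 3 and 4 on fibronectin lay above every uncoated one and library 2 among them. The log2 change was 0.69 (SE 0.258, edgeR adjusted p = 0.178). Rps10 (0.57), Rpl7a (0.22) and Rpl13a (0.20) came next, and Rpl30 (-0.27), Rpl36al (-0.12), Rpl23a (-0.12) and Rpl7 (-0.12) were lowest.

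Under anti-ITGAV, fibronectin gave 0 of 77 members past the threshold by edgeR, where 876 of 15469 genes (5.66%) passed; 12 members (15.6%) and 22.1% of all genes had an unadjusted p under 0.05. Limma called 0 members, where it called 956 of 11324 genes. DESeq2 called 1 member, Rps12, where it called 1601 of 15469 genes. This comparison shares the libraries of fibronectin with anti-ITGAV with the antibody comparison on fibronectin, so that a value of that group enters both. The median log2 change was -0.18 with 64 negative, -0.16 for the large and -0.23 for the small subunit. With the GC offset it was -0.11 with 62 negative, with an offset for GC and mRNA length -0.096, and without library 3 of fibronectin with anti-ITGAV -0.11 with 72 negative. Under the GC offset 19 members and 3867 of 15469 genes had an unadjusted p under 0.05 by edgeR.

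Rps12, a small-subunit protein, came closest to a call and is named after its values were seen. Its CPM was 230, 196, 253 and 215 on uncoated dishes with anti-ITGAV and 181, 185, 143 and 177 on fibronectin with anti-ITGAV. Every library on fibronectin lay below every uncoated one. The log2 change was -0.38 (SE 0.120, edgeR adjusted p = 0.0707). The adjusted p was 0.0319 with the GC offset and 0.0321 by DESeq2, and 0.130 without library 3, where the log2 change was -0.31. The fit with the GC offset called 1868 of 15469 genes and DESeq2 called 1601. Under IgG the same gene had a log2 change of -0.0073, and the difference between the antibodies was -0.38 (SE 0.169, edgeR adjusted p = 0.646). Reads of Rps12 could be shared with 24 rows named as its copies, whose summed counts were 33.5% of its own.

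The libraries of the 2 groups did not overlap for 6 members, each lower on fibronectin: Rps12, Rps16, Rps28, Rps29, Rpl37a and Rpl38. That is close to the share over all genes, of which 7.53% were lower and 6.55% higher without overlap. The log2 change was -0.24 for Rps16, -0.34 for Rpl37a, -0.37 for Rpl38, -0.39 for Rps29 and -0.47 for Rps28, with edgeR adjusted p from 0.168 to 0.187. Without library 3 of fibronectin with anti-ITGAV these were -0.17, -0.18, -0.22, -0.22 and -0.23. In the other 3 comparisons between groups 0 members were free of overlap, where 1.05% of all genes were higher and 1.37% lower for the antibody on fibronectin, 2.24% and 0.912% for the antibody on uncoated dishes, and 7.89% and 5.26% for fibronectin under IgG. The lowest estimates under anti-ITGAV were Rpl7a (-0.48), Rps28 (-0.47), Rps27a (-0.40) and Rpl36 (-0.40), and the highest Rpl36al (0.39), Rps27 (0.32), Rpl39 (0.24) and Rpl5 (0.20). For Rps27a, library 2 of uncoated with anti-ITGAV stood at 378 CPM, against 159 to 191 in the rest of that group. In fibronectin with anti-ITGAV Rps27a ran from 161 to 189 CPM. With the GC offset Rpl36 was at -0.18 and Rpl5 at -0.084.

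The coating by antibody interaction asks whether the antibody acts differently on the coated dish. By edgeR 0 of 77 members passed and 0 of 15469 genes (0%) did; 2 members, Rps27a and Rps12, and 3.97% of all genes had an unadjusted p under 0.05. DESeq2 and limma called 0 members. The median was -0.23 with 67 negative, against -0.019 over all genes, -0.16 with the GC offset and -0.15 without library 3 of fibronectin with anti-ITGAV. Rps27a (-1.09), Rpl7a (-0.70), Rps10 (-0.54) and Rpl37 (-0.46) were lowest, and Rpl36al (0.51), Rpl30 (0.42), Rps27 (0.27) and Rpl5 (0.22) highest. Rps27a was at 378 CPM in library 2 of uncoated with anti-ITGAV, against 159 to 191 in the rest of that group. Without that library the lowest interaction estimate of any member was -0.73.

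**Figure D5:**
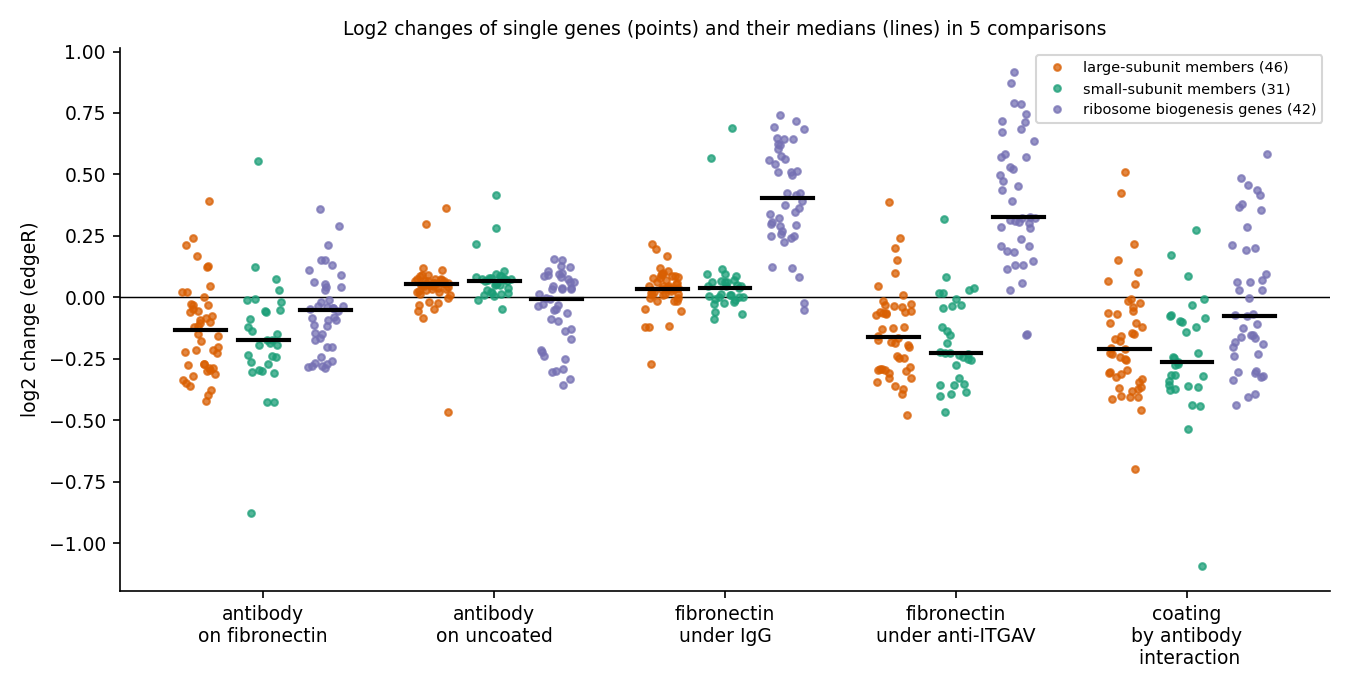
Log2 changes by edgeR of the 46 large-subunit members, the 31 small-subunit members and 42 ribosome biogenesis genes in 5 comparisons; each point is a gene and each line a median. The members' medians lie between -0.26 and 0.07, while the medians of the biogenesis genes lie at 0.40 and 0.33 for fibronectin under IgG and under anti-ITGAV.

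Across the 5 comparisons the size of a member's estimate moved with its GC content, as it did for other genes. The Spearman rho over the 77 members was -0.44 for blocking ITGAV on fibronectin, 0.36 on uncoated dishes, 0.30 for fibronectin under IgG, -0.40 under anti-ITGAV and -0.50 for the interaction; over the other genes it was -0.56, 0.39, 0.19, -0.49 and -0.61. These describe genes of the same libraries, and the part of GC content in the members' change was not tested beyond the offsets given.

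Most members varied together from library to library. The correlation of each member's log2 CPM with the mean of the other 76 had a median of 0.84 over the 16 libraries, with 52 members above 0.5 and 10 below 0. Rplp0 (0.98), Rpl15 (0.97) and Rpl32 (0.97) were among those that followed the mean most closely. Rpl5 (-0.69), Rpl30 (-0.52), Rps24 (-0.52), Rpl39 (-0.45), Rps4x (-0.44) and Rps27 (-0.41) ran against it. After the GC trend of each library was removed the median was 0.70 and 7 members were below 0. Rpl5 then stood at 0.65, Rpl7 at 0.85 in place of -0.28 and Rpl23 at 0.84 in place of -0.062, whereas Rps27 (-0.25) and Rpl30 (-0.22) stayed below 0. The libraries share depth and preparation with every gene in them, so these correlations describe the libraries as much as the genes.

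Within groups the spread of CPM had a median coefficient of variation of 12.1% over members. Rpl4, a large-subunit protein at the exit tunnel, was the steadiest at 4.77%, with 848 ± 52.3, 846 ± 44.6, 867 ± 38.6 and 852 ± 20.2 CPM in the 4 groups (SD, n = 4 each). Rps27 was the least steady at 62.6%. Its reads may be divided with Rps27rt, a retrogene of nearly the same sequence. Outside library 3 of fibronectin with anti-ITGAV, Rps27 ran from 49.8 to 130 CPM and Rps27rt from 17.5 to 85.6, and their sum from 114 to 155; the libraries low in Rps27, such as fibronectin with IgG 3 at 55.2, were high in Rps27rt, there 83.4. Rps27 is reported as uncertain for this reason. In library 3 the sum was 381 CPM. For Rpl17 the rows of named copies had 133% of its own count and a correlation of -0.64 with it, and for Rps10 they had 3546% of its count, so these are uncertain too. The same limit holds for Rpl21, whose copies had 40.6% of its count and a correlation of -0.36 with it. For Rpl23a the copies had 23.4% of its count and a correlation of 0.24. In all, 387 rows carry the name of a copy of a ribosomal protein gene, 223 of them with a count, and 88 with a mean count of at least 10.

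Among genes that build ribosomes, several rose on fibronectin. Of 42 biogenesis genes, all tested, 14 rose on fibronectin under IgG and 0 fell (edgeR adjusted p under 0.05), where 2.37% of all genes rose, with a median log2 change of 0.40 and 40 of 42 positive. Under anti-ITGAV 15 rose and 0 fell, where 2.84% of all genes rose, with a median of 0.33 and 40 positive. These 2 comparisons share no library, and 8 genes rose in both, 57.1% of the first set and 53.3% of the second. The same overlap over all genes was not counted. Without library 3 of fibronectin with anti-ITGAV 21 and 19 rose. With the GC offset 28 and 25 rose, where 1004 and 1006 of 15469 genes rose. Under IgG the count was 5 without library 1 or 2 and 6 without library 3 of uncoated with IgG. In those fits 162, 163 and 160 of 15938, 15776 and 15910 genes rose. The count was 9, 6 and 9 without libraries 1, 3 and 4 of fibronectin with IgG. For these, and without library 3 of fibronectin with anti-ITGAV, the number of all genes that rose is not given here. With the replicate number as a block the count under IgG was 8, where 225 of 15469 genes rose. Under anti-ITGAV it was 9 when only the 8 libraries compared were fitted, where 130 of 14631 genes rose. For the antibody edgeR called 0 of the 42 on either coating, with 0 at an unadjusted p under 0.05 and 0 by DESeq2 or limma.

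Nop56, a core protein of the particles that methylate ribosomal RNA, was at 35.5, 36.5, 39.3 and 45.1 CPM in uncoated with IgG and at 63.8, 62.6, 64.9 and 66.1 in fibronectin with IgG. The 2 groups were far apart, and the log2 change was 0.72 (SE 0.0971, edgeR adjusted p = 0.000500). Under anti-ITGAV it was 0.75 (SE 0.0972, edgeR adjusted p = 0.000374). Polr1a, the largest subunit of RNA polymerase I, went from 47.9 ± 5.72 to 77.5 ± 3.55 CPM under IgG (SD, n = 4 each; log2 0.69), and from 46.7 ± 4.08 to 70.0 ± 6.20 under anti-ITGAV (log2 0.58). Nolc1, a nucleolar chaperone, rose by 0.68 and 0.52 on the log2 scale, and Tsr1, which matures the small subunit, by 0.64 and 0.71. Npm1 and Ncl, the most abundant nucleolar proteins, had estimates of -0.053 and -0.025 under IgG and of 0.53 and 0.39 under anti-ITGAV, none of which passed the test.

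Of 21 tested regulators of mTOR and TOP mRNAs, 2 rose and 1 fell on fibronectin under IgG, where 3.79% of all genes changed. Myc was at 7.81 ± 2.33 CPM on uncoated dishes with IgG and at 21.6 ± 3.65 on fibronectin (SD, n = 4 each), with no overlap. Its log2 change was 1.46 (SE 0.199, edgeR adjusted p = 0.000521), and 1.49 (SE 0.199) under anti-ITGAV. Larp1, the protein that binds TOP mRNAs, rose by 0.43 under IgG (adjusted p = 0.00895), and its estimate under anti-ITGAV was 0.30 (adjusted p = 0.0553). Deptor, an inhibitor of mTOR, fell by 0.74 under IgG. Under anti-ITGAV Myc and Eif4e (0.78) rose and Eif4ebp2, which holds back the cap-binding protein, fell by 0.42. Of 22 translation factors and other mRNAs with a TOP tract none passed by edgeR in any comparison, with at most 3 at an unadjusted p under 0.05, 1 call by DESeq2 (fibronectin under anti-ITGAV) and 0 by limma. The medians for the antibody were -0.0047 (fibronectin) and 0.032 (uncoated), and those for fibronectin 0.0078 (IgG) and 0.023 (anti-ITGAV). Vim (0.23, adjusted p = 0.192 under IgG) and Nap1l1 (0.53, adjusted p = 0.0828 under anti-ITGAV) came closest.

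Of 12 genes of the p53 route that ribosomal protein imbalance engages, Sesn1 fell on fibronectin under IgG by 0.42 (edgeR adjusted p = 0.00905). Zmat3 fell on fibronectin under anti-ITGAV by 0.25 (edgeR adjusted p = 0.0467). Of 15469 genes 219 and 437 fell in these 2 comparisons, and 3.79% and 5.66% changed in either direction. DESeq2 called 2 and 3 of the 12 in these comparisons and limma 1 and 2, and for the antibody edgeR, DESeq2 and limma called 0, with 2 (fibronectin) and 0 (uncoated) at an unadjusted p under 0.05. Of 11 tested snoRNA host genes edgeR called 0 under IgG, with 4 at an unadjusted p under 0.05, 2 calls by DESeq2 and 1 by limma, and 2, Snhg5 and Snhg4, rose on fibronectin under anti-ITGAV, by 1.09 and 0.88, where 2.84% of all genes rose. In that comparison DESeq2 called 5 and limma 1. Several snoRNA host transcripts are known to begin with TOP tracts.

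The 77 tested mitochondrial ribosomal protein genes, which serve the other ribosome of the cell, had 0 calls by edgeR in every comparison, with 0 to 18 at an unadjusted p under 0.05; for fibronectin DESeq2 called 3 (IgG) and 6 (anti-ITGAV) and limma 1 in each. Their medians for the antibody were -0.062 (fibronectin) and 0.047 (uncoated), then 0.11 and -0.026 for fibronectin under IgG and under anti-ITGAV, and -0.14 for the interaction. Ribosomal genes that the name rule does not reach gave similar values. Rps3a1, a small-subunit protein with a mean count of 22090, had a log2 change of 0.10 for the antibody on fibronectin, and Fau, the ubiquitin-like fusion of RPS30, -0.40 (edgeR adjusted p = 0.721 for each). Fau was at 358, 379, 113 and 352 CPM in fibronectin with anti-ITGAV, so that library 3 stood far below the rest, and its estimate without that library is not given. Rpl7l1 and Rpl22l1 had 0.11 and 0.33.

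Cell type markers moved with the groups in part. Of 16 neutrophil genes, 2 fell with the antibody on fibronectin, Ltf and Lcn2, which were the only 2 of all genes called there (0.0129%). On fibronectin under anti-ITGAV 7 of the 16 fell, where 437 of 15469 genes fell. Their summed CPM ran from 303 to 450 in fibronectin with anti-ITGAV and from 407 to 554 in the other groups. Mast cell and basophil genes summed to 27.7 to 35.0 CPM in uncoated with IgG and to 20.6 to 27.1 in uncoated with anti-ITGAV. On fibronectin they summed to 15.2 to 19.3 CPM with IgG and to 10.1 to 13.3 with anti-ITGAV. The 15 macrophage genes had a median of 353 CPM, with Lyz2 at 23393, none of them at 0. By edgeR 1 of them rose and 1 fell on fibronectin under IgG, where 3.79% of all genes changed. Under anti-ITGAV 1 rose and 1 fell as well, where 5.66% changed. Their estimates were negative for 6 of 15 under IgG and 11 of 15 under anti-ITGAV. B cell genes, with Ighm highest at 50.1 CPM and none at 0, summed to 60.8 to 79.6 CPM in the uncoated groups and to 29.7 to 44.9 CPM on fibronectin, with no overlap. Fibroblast genes, with Lum at 0, summed to 22.3 to 27.4 CPM in uncoated with IgG and to 14.5 to 17.0 CPM in fibronectin with anti-ITGAV, also without overlap, with the other groups between 17.9 and 23.1. T and NK cell genes had a median of 0.0121 CPM with Gzma at 0. The part of these other cells in the members' values was not tested.

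Of 8353 protein-coding genes that are not members and have a mean of at least 10 CPM, those whose log2 CPM most resembled the members' mean over the 16 libraries were Psmb4 (r = 0.97), Snrpd2 (0.96), Ctnnbl1 (0.96), Ddost (0.96) and Cops9 (0.96). A further count gives the scale: 222 of them had an r above 0.9. The mRNAs of the 5 had a GC content of 51.4 to 55.7%, and the members had a median of 51.8%. The GC content of the 222 or of all 8353 genes was not compared.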

How the data were processed

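The authors deposited whole-number counts per gene and library, and FPKM for the same genes, for 16 libraries of polyA RNA. The submitters' processing notes name HISAT2, StringTie, featureCounts, mm10 and GRCm38.p6; the sources used here give no versions or counting options. The authors' FPKM was used for levels and as an alternative, log2(FPKM + 1), for tests. Counts were fitted with edgeR 4.0.16 (limma 3.58.1, DESeq2 1.42.0, R 4.3.3) after filterByExpr (15469 genes) and TMM scaling, with 1 mean per group over all 16 libraries, robust quasi-likelihood tests and Benjamini-Hochberg adjustment over all genes at 0.05. CPM uses TMM-scaled totals. GC content and mRNA length are those of the APPRIS principal transcript in GENCODE M21 (ties by support level, then the shortest), and the GC offset is a spline of log2 CPM deviations per library. The fit was also run on simulated counts, drawn for each gene from its own fitted spread and without a GC trend. That run cannot show how the fit behaves with the GC trends of these libraries, and its outcome is not given here. The members and the gene lists were chosen with earlier results of these data known.

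In the sample sheet written at the start, the group name of 8 libraries, all those with IgG, was wrong: they were named as anti-ITGAV. Groups were therefore taken from the title recorded for each library in that sheet and checked against its coating and treatment labels. The comparisons were those planned, except that the planned permutation p for the relation of GC trend and share is not given.

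Named members were those past the threshold, the 4 highest and 4 lowest estimates of each comparison, the 5 highest and 5 lowest levels, and a list of stalk, p53-linked and paralogous genes; Rps12 was added after its values were seen. Of the other lists up to 3 genes of smallest adjusted p were named, with a few others for their role. No replicate pair agreed within sampling noise, with chi-square over degrees of freedom of at least 5.4. The alternatives were other scalings and filters, DESeq2, limma, GC and length offsets, the replicate block and leaving out each library. Some items withheld for evaluation are not reported here.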

Additional observations from a re-analysis of the deposited data

Results flagged for a closer look

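In groups of 4 libraries, a gap between the highest or lowest library and its nearest neighbour above 0.829 of the range was looked for. This covered 136 sets of values (named members' CPM, the summed share and the subunit ratio, by group), and 18 gaps were found. A single independent set passes this limit about 1 time in 20. That rate does not apply to the count, because the sets share libraries and many members were named for large estimates.

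Of these 18 gaps, 14 were library 3 of fibronectin with anti-ITGAV. It stood low for Rplp0 (703 CPM), Rpsa (762), Rplp1 (406), Rps3 (372), Rpl11 (230), Rps19 (191), Rps28 (50.1) and Rpl36 (48.1). It stood high for Rpl5 (715 CPM), Rps24 (589), Rpl39 (419), Rps27 (344), Rpl30 (236) and Rpl36a (107). This is the library of lowest GC trend and highest mitochondrial share, whose part in these values was not tested.

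The others were single values. Rps27 stood at 130 CPM in library 3 of uncoated with anti-ITGAV, against 110 to 112 in the other 3. Rps27a stood at 378 CPM in library 2 of that group, against 159 to 191. Rpl30 stood at 120 CPM in library 1 of uncoated with IgG, against 146 to 151. The ratio of large- to small-subunit counts was 1.37 in library 3 of fibronectin with IgG, against 1.39 in the other 3.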

How the results depend on the processing

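No member was called under any alternative for the antibody on either coating, for fibronectin under IgG or for the interaction. For fibronectin under anti-ITGAV 1 member, Rps12, was called with DESeq2 and with each of the GC offsets (on all genes, without the members, and with length). It was also called with the replicate block and GC offset together. In that order these fits called 1601, 1875, 1868, 1997 and 1744 of 15469 genes. Leaving out 1 library gave 0 to 1 members, the 1 without library 2 of fibronectin with IgG.

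Medians of the members kept their sign except for fibronectin under IgG, which ran from -0.019 to 0.069 with 1 library left out. The range with 1 left out was -0.21 to -0.089 for the antibody on fibronectin, 0.016 to 0.097 on uncoated dishes, -0.24 to -0.11 for fibronectin under anti-ITGAV and -0.28 to -0.15 for the interaction.

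Some named members reversed. With 1 library left out, log2 changes ran for Rps27 for the antibody on fibronectin from -0.33 to 0.86, Rpl39 for the antibody on fibronectin from -0.25 to 0.37, Rpl36al for fibronectin under IgG from -0.31 to 0.14, Rpl23a for fibronectin under IgG from -0.30 to 0.022, Rps27 for fibronectin under anti-ITGAV from -0.57 to 0.61, Rpl39 for fibronectin under anti-ITGAV from -0.21 to 0.39, and Rps27 for the interaction from -0.61 to 0.58. With the GC offset, the GC offset without members, the GC and length offset and the replicate block with GC offset in turn, Rpl7 for the antibody on uncoated dishes was 0.014, 0.014, 0.016 and 0.013, Rps24 for the antibody on uncoated dishes was 0.044, 0.044, 0.038 and 0.041, Rpl5 for fibronectin under anti-ITGAV was -0.083, -0.084, -0.095 and -0.083, Rpl5 for the interaction was -0.20, -0.20, -0.20 and -0.18. With limma on log2(FPKM + 1), on log2(FPKM + 0.1) and without the filter, Rps27 for fibronectin under anti-ITGAV was -0.064, -0.067 and -0.064, and Rps27 for the interaction was -0.096, -0.099 and -0.096.

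Same-numbered libraries had correlations from -0.30 to 0.26. The labels do not say whether they share a mouse or culture. These correlations cannot decide it, because the libraries also differ in GC trend. With the replicate block 0 members were called, calls over all genes went from 586 to 360 for fibronectin under IgG and from 876 to 600 under anti-ITGAV, and the interaction of Rps27 was -0.058, or -0.016 with the GC offset as well. For these 2 comparisons DESeq2 called 1059 and 1601 genes, the GC offset gave 1674 and 1875, and under anti-ITGAV the 8 libraries alone gave 251. With 1 library left out they ran from 253 to 1325 and from 428 to 1037. For the antibody DESeq2 called 19 genes on fibronectin and 28 on uncoated dishes, and the GC offset 11 and 10; for the interaction DESeq2 called 1.

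How far depth limits the calls was not tested; 75 members had an FPKM of at least 1, and Rpl36al and Rps10 had the fewest counts.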
